A study of Homo sapiens with 4 samples.

Results

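The replication-dependent histone genes encode the linker histone H1 and the core histones H2A, H2B, H3 and H4 that package newly made DNA. They were taken from the deposited table as the rows whose gene name starts with HIST1H, HIST2H, HIST3H or HIST4H, leaving out 12 rows whose names end in P or PS and a number, which mark pseudogenes. This gave 75 of the 58174 genes in the table: 6 for H1, 17 for H2A, 22 for H2B, 15 for H3 and 15 for H4. By name prefix, 56 belong to HIST1, 14 to HIST2, 4 to HIST3 and 1 to HIST4. In the GENCODE release 29 annotation 74 of the 75 identifiers were found, with 56 genes on chromosome 6, 17 on chromosome 1 and 1 on chromosome 12. That annotation lists 3 of them (HIST3H2BA, HIST2H2BA and HIST2H2BB) as pseudogenes. The identifier not found is that of HIST2H2BC, whose RefSeq symbol, H2BC20P, ends in the P of a pseudogene name. It stays a member because the choice went by the name in the deposited table. The symbol HIST1H3D stands on 2 rows, so the row ENSG00000197409 is meant below unless both are named.

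RNA was sequenced from 2 human lung cancer cell lines, each transfected for 48 h with a small interfering RNA against CDH3 (siCDH3), the gene for P-cadherin, or with a control RNA (siCTR). H1299 cells are a non-small cell lung carcinoma line grown from a metastasis. HCC827 cells came from a lung adenocarcinoma and carry an activating deletion in the EGFR gene. The groups were H1299 siCTR, H1299 siCDH3, HCC827 siCTR and HCC827 siCDH3, with 1 library each, so within a line no difference has a replicate check. Silencing was transient, and neither the sequence nor the number of the siRNAs is given in the sources used here. Values below are TPM (transcript abundance), a measure scaled to transcript length and to the library, and 4 values in a row follow the order of the groups just given.

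Most replication-dependent histone genes are made in bulk during S phase, when DNA is copied. Their mRNAs have no introns and usually no poly(A) tail; they end just after a conserved stem-loop that the stem-loop binding protein SLBP holds through processing, export and translation. Some of the genes can also use a polyadenylation signal further downstream and make ordinary polyadenylated mRNA, and a library made by selecting poly(A) RNA would capture mainly that form. Whether poly(A) RNA was selected here is not given in the sources used here, so the values measure whatever form the libraries captured.

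The stem-loop was searched for with a pattern that fixes some of its 16 bases and allows alternative letters at others. It was found in the GENCODE release 29 transcripts of 34 members, in 6 forms. A stem-loop outside the pattern would be missed. The 16 bases of the stem-loop are in capitals and 5 bases on each side are in lower case, written 5′ to 3′ in DNA letters; the motif lies in the 3′ part of the mRNA, and the members shown passed 5 TPM and cover 5 of the forms.
HIST1H2AC: ccaaaGGCTCTTTTCAGAGCCcccct
HIST1H2BD: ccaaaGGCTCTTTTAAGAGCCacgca
HIST2H2AA3: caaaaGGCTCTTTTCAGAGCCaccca
HIST1H2AG: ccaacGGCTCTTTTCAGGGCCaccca
HIST2H4A: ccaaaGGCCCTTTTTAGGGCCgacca
HIST1H4J: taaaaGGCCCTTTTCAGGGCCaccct
The form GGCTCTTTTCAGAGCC was the most frequent, in 19 members. The transcript model that holds the stem-loop ends 6 bases after it in HIST1H4J, 35 bases after it in HIST2H2AA3 and 39 bases after it in HIST1H2BD. In HIST1H2AC and HIST1H2AG it runs on for 1114 and 1761 bases. Across the members, 10 models end within 100 bases after the stem-loop and 24 run 100 bases or more past it; for 40 members no stem-loop was found in the models, and several of these, HIST1H2BK and HIST1H1C among them, hold little beyond the coding sequence. TPM divides by the length of such models, and which lengths the authors used is not given in the sources used here.

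Core histone genes are often arranged head to head and share the DNA between their start sites as a promoter. By GENCODE release 29, 12 pairs of members start back to back with 219 to 357 bases between the starts. HIST1H2BO is counted both with HIST1H2AM, at 314 bases, and with HIST1H3J, at 357 bases, so the pairs are not all separate regions. The promoter windows of 3 H2B genes of such pairs are shown: HIST1H2BK and HIST2H2BE had far higher TPM than their partners, and HIST1H2BC had a partner nearer its own level. Each is 300 bases from RefSeq (GRCh38.p14), 250 before the start and 50 after it, written 5′ to 3′ on the strand of the gene; capitals mark the octamer ATTTGCAT, the binding motif of the transcription factor OCT1, and the CCAAT box, which reads ATTGG on the other strand.
HIST1H2BK, chr6:27146809-27147108, minus strand: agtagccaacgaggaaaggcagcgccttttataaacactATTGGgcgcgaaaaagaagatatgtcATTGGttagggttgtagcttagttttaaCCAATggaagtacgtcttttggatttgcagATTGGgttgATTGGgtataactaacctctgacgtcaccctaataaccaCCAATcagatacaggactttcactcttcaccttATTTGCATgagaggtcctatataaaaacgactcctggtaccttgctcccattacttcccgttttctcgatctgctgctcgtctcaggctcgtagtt
HIST2H2BE, chr1:149886633-149886932, minus strand: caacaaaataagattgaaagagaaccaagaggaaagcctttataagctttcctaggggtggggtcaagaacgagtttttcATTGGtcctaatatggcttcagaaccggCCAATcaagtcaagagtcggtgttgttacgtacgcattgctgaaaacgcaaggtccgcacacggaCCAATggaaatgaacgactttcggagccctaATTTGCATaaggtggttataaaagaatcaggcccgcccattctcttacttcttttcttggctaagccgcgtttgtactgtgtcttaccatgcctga
HIST1H2BC, chr6:26123877-26124176, minus strand: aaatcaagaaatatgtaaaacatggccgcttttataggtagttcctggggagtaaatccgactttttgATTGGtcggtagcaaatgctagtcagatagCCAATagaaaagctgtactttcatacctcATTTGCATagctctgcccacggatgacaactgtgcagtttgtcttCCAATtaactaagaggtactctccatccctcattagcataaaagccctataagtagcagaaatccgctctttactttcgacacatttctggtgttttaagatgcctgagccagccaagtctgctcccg
The octamer begins 46 bases before the start in HIST1H2BK and in HIST2H2BE, and 123 bases before it in HIST1H2BC. Promoter windows were matched for 65 members. On either strand the octamer was in 14 of 18 H2B windows (77.8%) and 11 of 16 H2A windows (68.8%), in 1 of 12 H3 windows and in none of the 6 H1 or 13 H4 windows, against 1.80% of the 27305 windows in the table. CCAAT on either strand was in 84.6% of the members' windows against 35.7% of all windows, and in all windows of H1, H2A, H2B and H3 but only 3 of 13 of H4. TATAAA or TATATA was in 73.8% of the members' windows against 14.2% of all. These matches are a description of the letters. Windows of a head-to-head pair overlap. The H3 window with the octamer, listed for HIST1H3D, is the same window as the one listed for HIST1H2AD. The windows are therefore not independent.

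A few members held most of the signal, and most members were close to 0. In total 22 members reached 5 TPM or more in 1 library or several (1 H1, 7 H2A, 7 H2B, 2 H3 and 5 H4), and 53 stayed under 5 in all libraries. Of these 53, 30 were under 1 in all 4 libraries and 8 were listed at 0 in all 4: HIST1H1A, HIST1H2AA, HIST1H2AK, HIST1H2BA, HIST1H2BB, HIST1H4A, HIST1H4G and HIST2H2AB. Members at 5 or more numbered 20, 22, 16 and 16 in the 4 libraries. The summed TPM of all members was 605, 674, 465 and 536, which is 0.0605%, 0.0674%, 0.0465% and 0.0536% of the library. Those sums put siCDH3 1.11-fold above siCTR in H1299 and 1.15-fold above it in HCC827.

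**Figure D1:**
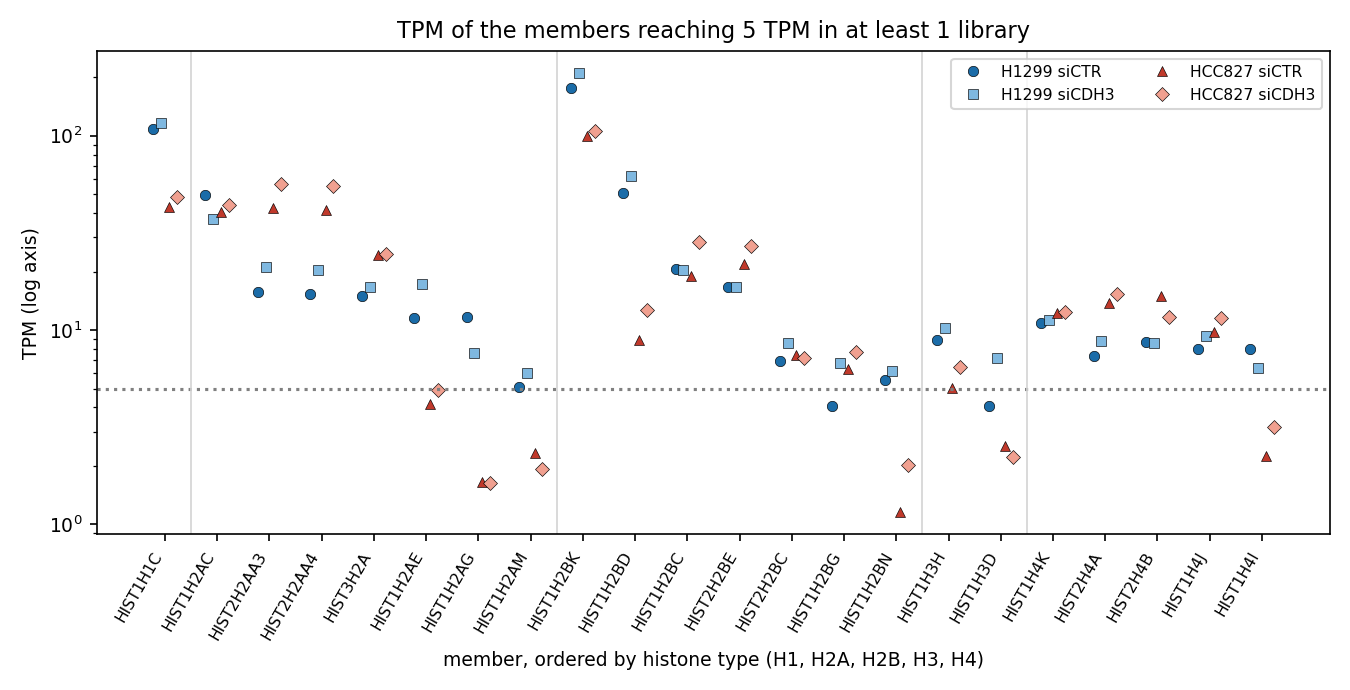
TPM on a log axis of the 22 members that reached 5 TPM in at least 1 library, ordered by histone type, with 1 point per library. The dotted line marks 5 TPM; HIST1H2BK has the highest TPM in each library, and HIST1H2BD is lower in both HCC827 libraries than in both H1299 libraries.

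The libraries as a whole were checked before the histone genes were compared. CDH3 itself was at 1.21 TPM in H1299 siCTR and 0.169 in H1299 siCDH3, and at 173 in HCC827 siCTR and 78.8 in HCC827 siCDH3, so 14.0% and 45.6% of the control value remained; H1299 began near 1 TPM. TPM summed to between 999859 and 999943, and 10713 to 11329 genes reached 5 TPM. Mitochondrially encoded genes took 13.5% and 16.4% of TPM in the H1299 libraries and 36.2% and 34.4% in the HCC827 libraries; differences between the lines are therefore also given rescaled without them, below. All 6 epithelial markers (EPCAM, CDH1, KRT7, KRT8, KRT18 and KRT19) passed 5 TPM in HCC827 and 3 of 6 in H1299, where EPCAM, CDH1 and KRT19 were under 1. Of the haematopoietic markers 0 of 6 passed in any library, with a summed TPM of 0.363 to 1.43, and of the fibroblast and endothelial markers only COL1A1 did, at 5.58 and 5.87 in HCC827, with a summed TPM of 3.42 to 7.78 for that list.

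H1 was almost wholly HIST1H1C. This gene for linker histone H1.2, which binds the DNA between nucleosomes, was at 108, 116, 42.8 and 48.5 TPM. Both H1299 libraries were above both HCC827 libraries. Within the lines the log2 ratio of TPM + 1, siCDH3 over siCTR, was 0.10 in H1299 and 0.18 in HCC827. The other 5 H1 genes stayed under 2 TPM: HIST1H1E, the next highest, was at 0.620, 0.785, 0.741 and 1.94, and HIST1H1B was at 0.231, 0.439, 0.501 and 0.219. Summed over H1, TPM was 109, 117, 44.6 and 52.0.

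H2A was spread over more genes, and 2 near-identical HIST2 copies led it in HCC827. HIST2H2AA3 was at 15.7, 21.2, 42.4 and 56.7 TPM, and its duplicate HIST2H2AA4 at 15.3, 20.3, 41.4 and 55.3. Both were higher in each siCDH3 library than in its control and higher in both HCC827 libraries than in both H1299 libraries. The 50-base windows of each member's longest GENCODE transcript were compared with those of the other members and other genes named HIST. A window found in none of these genes is called unique, and transcripts of further genes were not compared. By that count 0% of the windows of HIST2H2AA3 and 2.91% of those of HIST2H2AA4 were unique. Reads of the copies therefore cannot be told apart, and the pair is best read as a sum. That sum was 31.0, 41.4, 83.8 and 112 TPM, a 1.34-fold higher value with siCDH3 in both lines.

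HIST1H2AC, whose H2A transcript runs past its stem-loop in the annotation, was at 49.4, 37.2, 40.6 and 44.2 TPM. Its log2 ratio was -0.40 in H1299 and 0.12 in HCC827, so the lines pointed in opposite directions. HIST3H2A, the H2A gene of the small chromosome 1 cluster, was at 14.9, 16.7, 24.4 and 24.7, higher in HCC827 and little different between the siRNAs. HIST1H2AE was at 11.6, 17.2, 4.18 and 4.88, and HIST1H2AG at 11.7, 7.58, 1.65 and 1.63. These HIST1 genes passed 5 TPM in H1299 only, and siCDH3 was above siCTR for HIST1H2AE (log2 ratio 0.53) and below it for HIST1H2AG (-0.57). HIST1H2AM was at 5.10, 5.996, 2.34 and 1.92. Of the 10 H2A genes under 5 TPM, HIST2H2AC came nearest, at 1.39, 4.61, 3.22 and 3.07, and HIST1H2AI followed at 2.15, 2.78, 2.14 and 3.19.

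H2B gave the largest sum of the types in each H1299 library, and in both HCC827 libraries too, although there H2A came close: summed TPM was 293, 346, 176 and 205 for H2B and 132, 137, 165 and 197 for H2A. HIST1H2BK alone was at 176, 211, 99.2 and 106 TPM, which is 29%, 31.3%, 21.4% and 19.8% of all member TPM. Its log2 ratio with siCDH3 was 0.26 in H1299 and 0.10 in HCC827. HIST1H2BD was at 51.0, 62.2, 8.89 and 12.7 TPM. In that gene the lines did not overlap, and each siCDH3 library was above its control, with log2 ratios of 0.28 and 0.47.

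HIST1H2BC was at 20.6, 20.3, 19.1 and 28.3 TPM, so that only the HCC827 siCDH3 library stood above the others. HIST2H2BE was at 16.6, 16.7, 21.8 and 27.0, and likewise showed a difference between the siRNAs mainly in HCC827 (log2 ratio 0.30, against 0.01 in H1299). The remaining H2B genes that passed were lower. HIST1H2BG was at 4.09, 6.74, 6.28 and 7.68, with the largest log2 ratio in H1299 (0.61) of the H2B genes that passed 5 TPM. In H1299 it passed only through the siCDH3 library. HIST2H2BC, a pseudogene by its RefSeq symbol, was at 6.94, 8.55, 7.46 and 7.18, and HIST1H2BN at 5.51, 6.12, 1.15 and 2.02. Of the 15 H2B genes under 5 TPM, HIST1H2BH was highest, at 4.61, 4.26, 1.44 and 1.78, and HIST2H2BF was at 0.288, 0.416, 2.13 and 3.44, higher in both HCC827 libraries.

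H3 was the lowest type by summed TPM, at 22.2, 23.9, 18.5 and 21.1. HIST1H3H was at 8.86, 10.3, 5.04 and 6.46 TPM, above 5 in all 4 libraries. HIST1H3D reached 5 only in H1299 siCDH3, at 4.09, 7.17, 2.53 and 2.23. Its second row, ENSG00000282988, which GENCODE names AL031777.3, was at 3.88, 3.01, 2.60 and 3.12; none of the 50-base windows of the first row is unique, and the 2 rows summed to 7.96, 10.2, 5.13 and 5.35. HIST1H3E was listed at 0 in both H1299 libraries and stood at 2.86 and 3.11 in HCC827. HIST1H3B, an H3.1 gene, was at 2.23, 1.18, 0.545 and 0.566.

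H4 sums differed little between the siRNAs of a line, at 49.3, 49.97, 60.6 and 61.4 TPM. HIST1H4K was at 10.8, 11.3, 12.2 and 12.4 TPM and its copy HIST1H4J at 7.94, 9.35, 9.76 and 11.5. HIST2H4A was at 7.32, 8.83, 13.7 and 15.3 and its copy HIST2H4B at 8.69, 8.58, 14.9 and 11.7. For both pairs less than 20% of the 50-base windows were unique, and the summed pairs were 18.8, 20.6, 22.0 and 23.9 for HIST1H4J with HIST1H4K, and 16.01, 17.4, 28.6 and 27.0 for HIST2H4A with HIST2H4B. Both summed pairs were higher in both HCC827 libraries, the HIST2 pair by the wider margin. HIST1H4I, at 7.96, 6.41, 2.25 and 3.16, went the other way, higher in H1299. HIST1H4H came just under 5, at 4.61, 2.70, 3.09 and 3.78, and HIST1H4C was at 0.605, 0, 0.167 and 0.278.

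**Figure D2:**
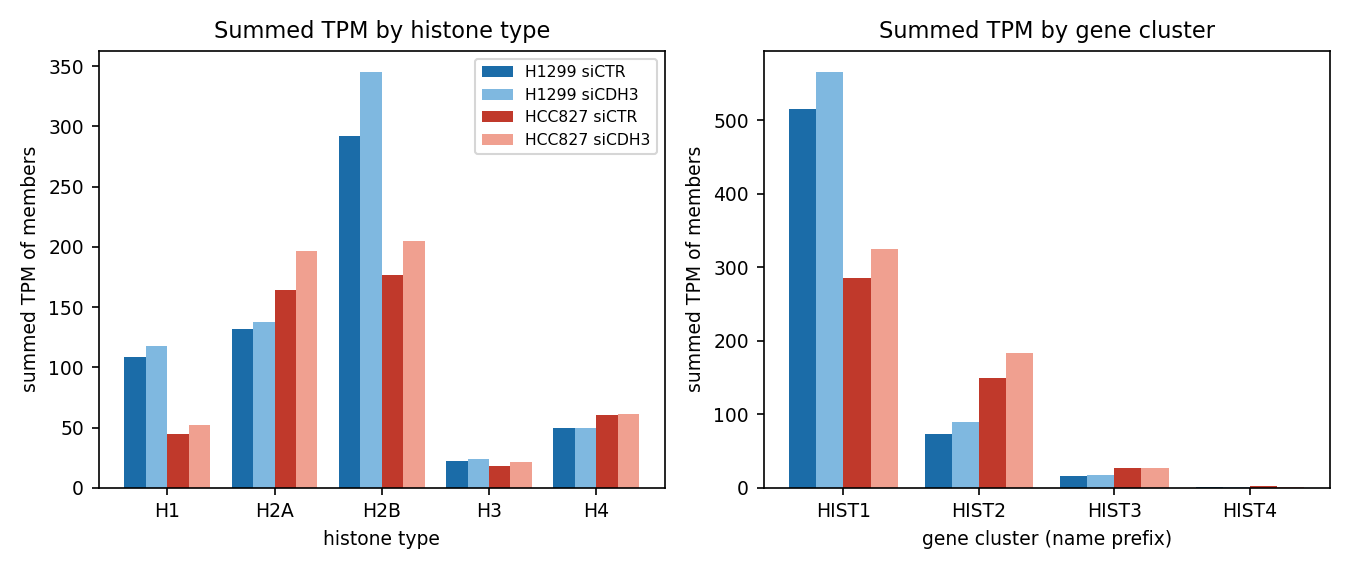
Summed TPM of the members by histone type (left) and by gene cluster (right), with 1 bar per library and axes from 0. HIST1 sums were 516 and 566 TPM in H1299 and 285 and 324 in HCC827, while HIST2 sums were 72.8 and 89.9 in H1299 and 150 and 183 in HCC827.

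Sharing within near-identical copies was not limited to these pairs. Among the 21 members that passed 5 TPM and have a GENCODE transcript, 8 had fewer than 20% unique 50-base windows: HIST2H2AA3, HIST2H2AA4, HIST2H4A, HIST2H4B, HIST1H4J, HIST1H4K, HIST1H2AM and HIST1H3D. Their single-gene values are uncertain. HIST1H1C (100% unique) and HIST1H2AE (100%) share no 50-base window with the other genes compared. Sharing with the rest of GENCODE was not tested.

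The 6 members listed as described to make polyadenylated transcripts (HIST1H1C, HIST1H2AC, HIST1H2BC, HIST1H2BD, HIST1H2BK and HIST2H2BE) took 69.5% and 68.7% of all member TPM in the H1299 libraries and 50.03% and 49.8% in the HCC827 libraries. The list was chosen with values of these data known, so its share is a description. Their summed TPM was 421, 463, 232 and 267.

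Genes that face each other across 1 promoter region had unequal TPM in several pairs. TPM divides by transcript length, and the longest GENCODE models of partners can differ. They hold 2194 bases for HIST2H2BE and 390 for HIST2H2AC, and 895 for HIST3H2A and 2364 for HIST3H2BB. Those of HIST1H2BK and HIST1H2AH are alike, at 381 and 387. What the gaps say of promoter output was not tested. HIST1H2BK, at 176, 211, 99.2 and 106, starts 331 bases from HIST1H2AH, which was at 1.15 in H1299 siCTR and listed at 0 in the other 3 libraries. HIST2H2BE, at 16.6 to 27.0, starts 323 bases from HIST2H2AC, at 1.39 to 4.61. In the HIST3 cluster the H2A gene was the higher: HIST3H2A was at 14.9 to 24.7 and HIST3H2BB, whose start is 234 bases away, at 0.402 to 2.20. HIST1H2BC and HIST1H2AC, 219 bases apart, were nearer to each other, with HIST1H2AC the higher in all 4 libraries. In the pair of HIST1H2BG and HIST1H2AE, 283 bases apart, the order differed between the lines: HIST1H2AE was the higher in both H1299 libraries and HIST1H2BG in both HCC827 libraries.

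**Figure D3:**
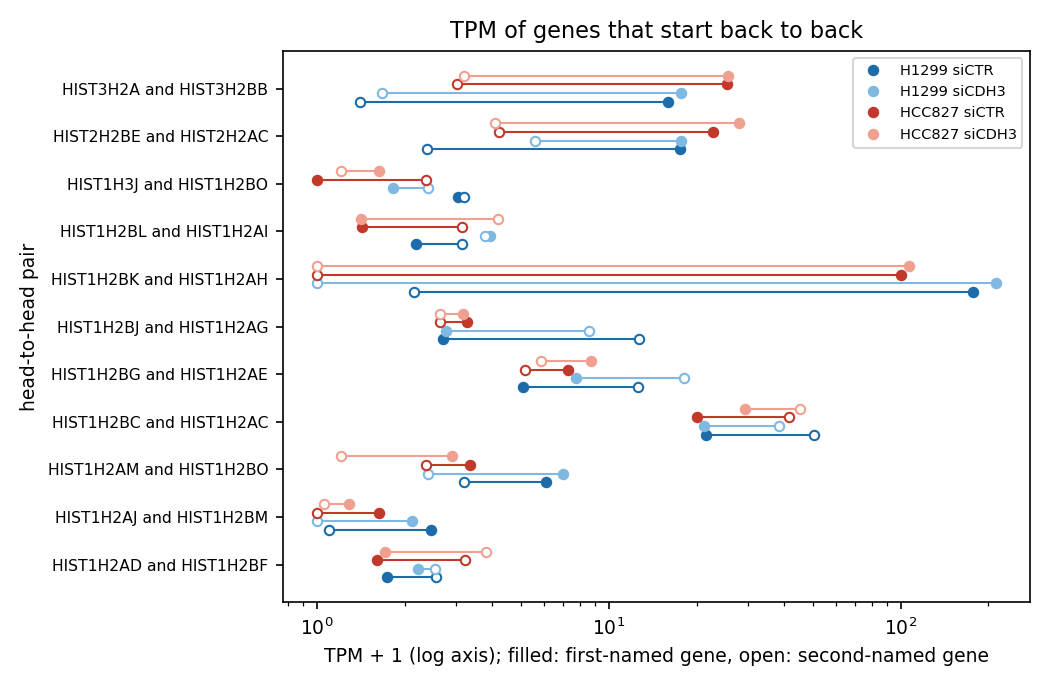
TPM + 1 on a log axis for 11 head-to-head pairs, with 1 line per library; filled points are the first-named gene and open points the second-named. The pair of HIST1H2AA and HIST1H2BA, listed at 0 throughout, is left out; the widest gap is that of HIST1H2BK and HIST1H2AH.

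The design asked how expression differs when CDH3 is silenced. With siCDH3 most of the measured members stood slightly above the control in each line, and none reached 2-fold. In H1299, 22 members passed 5 TPM in at least 1 of both libraries. Of these 17 had a log2 ratio above 0 and 5 below, from -0.57 (HIST1H2AG) to 0.68 (HIST1H3D). HIST1H3D and HIST1H2BG (0.61), with the largest ratios, passed only through the siCDH3 library, so the filter fixed their sign. The members' median log2 ratio was 0.19, against -0.11 over the 11622 genes tested, and 19 of 22 lay above that median. No member was at least 2-fold higher, against 0.878% of all genes, and none at least 2-fold lower, against 1.58%.

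In HCC827, 16 members passed; 14 had a log2 ratio above 0 and 2 below, from -0.32 (HIST2H4B) to 0.54 (HIST1H2BC). Their median was 0.20 against 0.03 over 11043 genes, and 12 of 16 lay above the all-gene median. Again no member was at least 2-fold higher, where 1.01% of all genes were, or at least 2-fold lower, where 0.833% were. By type, summed TPM with siCDH3 relative to siCTR was 1.08-fold (H1299) and 1.17-fold (HCC827) for H1, 1.04 and 1.20 for H2A, 1.18 and 1.16 for H2B, 1.08 and 1.14 for H3, and 1.01 and 1.01 for H4.

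Of the 16 members that passed in both lines, 12 (75%) had a log2 ratio above 0 in both, against 20.8% of the 9724 genes that passed in both. The all-gene median of H1299 lies below 0; measured from each line's own median, 11 of 16 members (68.8%) were above it in both, against 26.1% of genes. Near-identical copies are among these members, so they are fewer than 16 independent values. HIST1H2BG, which passed in H1299 only through the siCDH3 library, is also among the 12. HIST2H4B was the 1 member below 0 in both lines, where 2879 of the 9724 genes were. However, its sum with its copy HIST2H4A had a log2 ratio of 0.11 in H1299 and -0.08 in HCC827. Below the all-gene median in both lines lay 0 members, where 2612 of the 9724 genes did. HIST1H2AC, HIST1H2BC and HIST2H2BC had opposite signs. In H1299 the ratios of HIST2H4B and HIST1H2BC, both close to 0, turned positive with the all-gene median set to 0 and without mitochondrially encoded genes.

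**Figure D4:**
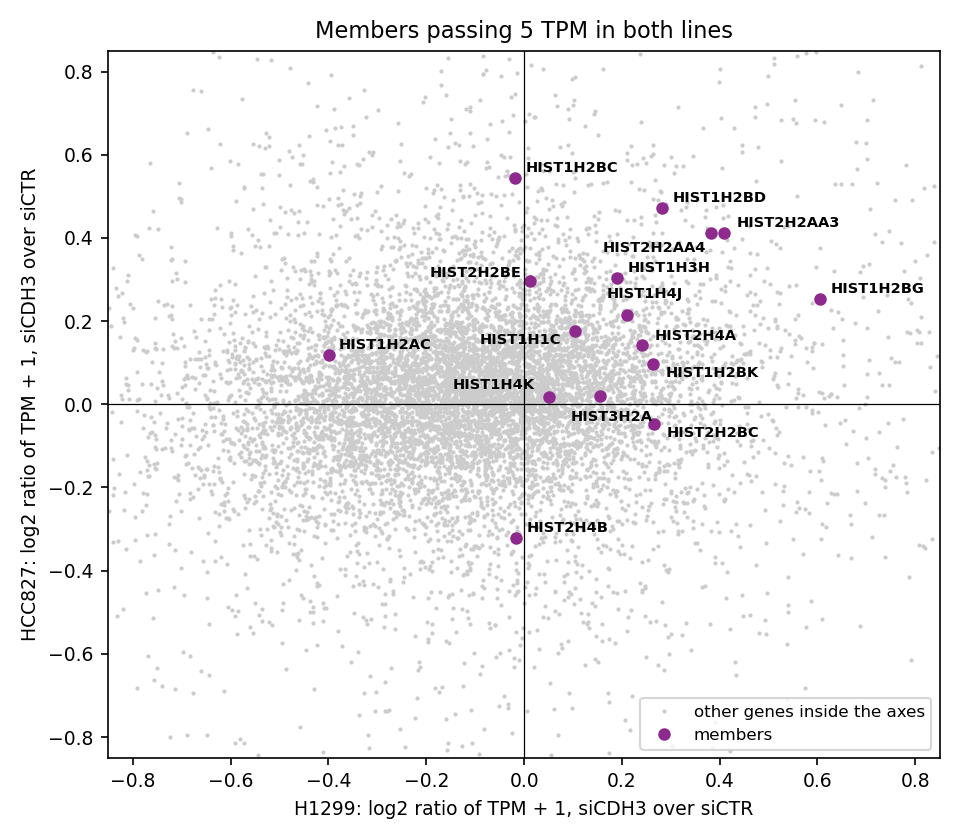
Log2 ratio of TPM + 1, siCDH3 over siCTR, in H1299 (x axis) and HCC827 (y axis), for the 16 members that passed 5 TPM in both lines and the other genes that fall inside the axes. Of the 16 members 12 lie above 0 on both axes, with HIST2H2AA3 and HIST2H2AA4 next to each other at about 0.41 in HCC827.

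limma was fitted to log2(TPM + 1) of 12941 genes with the cell line as a block. It tests for a difference common to both lines against the disagreement between them. With 1 residual degree of freedom per gene, it draws each gene's spread toward that of all genes. Its p-values and standard errors (SE) thus reflect that shared spread too, and they measure only the spread between these libraries. It called 0 of 22 members, against 1 gene of all (0.00773%), and the smallest adjusted p of a member was 0.95. Before adjustment, 2 members were under 0.05 by limma, where 4.49% of all genes were. They were the copies HIST2H2AA3, at a log2 difference of 0.41 (SE 0.15), and HIST2H2AA4, at 0.40 (SE 0.15), which share their reads and are not 2 observations. For HIST1H2BK the difference was 0.18 (SE 0.15) and for HIST1H1C 0.14 (SE 0.15). The differences above 0 in both lines therefore did not pass the test for any member. CDH3 itself, at a limma log2 difference of -1.02 (SE 0.16), was not called either (adjusted p = 0.68). A gene not called for siCDH3, here or below, is thus not shown to be unchanged.

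The lines themselves differed by cluster. By summed TPM, HIST2 and HIST3 were higher in both HCC827 libraries than in both H1299 libraries, and HIST1 was lower. In the siCTR libraries the HIST1 sum in HCC827 was 0.553-fold that in H1299, the HIST2 sum 2.06-fold and the HIST3 sum 1.69-fold. HIST2 genes thereby made up 12.0% and 13.3% of member TPM in H1299 and 32.3% and 34.2% in HCC827. HIST4H4, the single HIST4 gene, was at 0.575, 0.889, 2.95 and 1.32. In these bulk samples more cells expressing a gene and more RNA per cell cannot be told apart.

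Between the siCTR libraries 21 members passed 5 TPM. HIST2H2AA3 and HIST2H2AA4 were at least 2-fold higher in HCC827, 2 of 21 where 13.5% of all genes were. HIST1H1C, HIST1H2AE, HIST1H2AG, HIST1H2BD, HIST1H2BN and HIST1H4I were at least 2-fold lower, 6 of 21 where 27.8% were. Among these, HIST1H2AE, HIST1H2AG, HIST1H2BN and HIST1H4I passed 5 TPM only through H1299. With the all-gene median set to 0 the counts were 5 higher and 4 lower of 21. Without mitochondrially encoded genes 24 members passed, and 6 were higher and 4 lower. The shares of all genes past 2-fold were not computed on either of these scales, so these counts have no background beside them. HIST1H1C (-0.92 and -0.88) and HIST1H2AE (-0.89 and -0.93) then fell short of 2-fold. On the deposited scale both shares lie near the background. The members' median log2 ratio was -0.10, against -0.39 over 12601 genes.

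Over both siRNAs limma called 16 of 22 members, 6 higher in HCC827 (21.5% of all genes were) and 10 lower (41.3%); over all members both shares again lie near the background. The 6 higher ones were HIST2H2AA3, at a log2 difference of 1.38 (SE 0.15, adjusted p = 0.00152), HIST2H2AA4 (1.39), HIST2H4A (0.78), HIST3H2A (0.60), HIST2H4B (0.56) and HIST2H2BE (0.52, adjusted p = 0.0436). All of the 10 lower ones were HIST1 genes. HIST1H2BD differed most, at -2.30 (SE 0.16, adjusted p = 0.000347), then HIST1H2AG at -1.98, HIST1H2AE at -1.45, HIST1H2BN at -1.42 and HIST1H1C at -1.28. The others were HIST1H4I (-1.15), HIST1H2AM (-1.07), HIST1H3D (-0.93), HIST1H2BK (-0.90) and HIST1H3H (-0.65, adjusted p = 0.0178). HIST1H2AC, HIST1H2BC, HIST1H2BG, HIST1H4J, HIST1H4K and HIST2H2BC were not called, with differences from -0.07 to 0.34.

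By cluster, 10 of 15 HIST1 members were called lower and 0 higher, with a median log2 difference of -0.93. HIST1H2AE, HIST1H2AG, HIST1H2AM, HIST1H2BN, HIST1H3D and HIST1H4I were under 5 TPM in both HCC827 libraries. They passed the filter only through H1299, where they were higher, so their calls as lower are not separate support. In each HCC827 library 9 HIST1 members reached 5 TPM. Of these HIST1H1C, HIST1H2BD, HIST1H2BK and HIST1H3H were called lower, where 41.3% of all genes were. Of the HIST2 members 5 of 6 were called higher and 0 lower, with a median of 0.67, and these 5 include 2 copy pairs. Over all genes the median was -0.31, which goes with the larger mitochondrial share in HCC827. When TPM was rescaled without the mitochondrially encoded genes the all-gene median was 0.10, and 33.7% of genes were then called higher and 27.7% lower. On that scale 17 HIST1 members were tested, of which 9 were called lower and 3 higher, and 8 HIST2 members, of which 6 were called higher and 0 lower. With the median of all genes set to 0 in each library, an alternative chosen after seeing the data, HIST1 had 9 lower and 2 higher calls and HIST2 had 5 higher and 0 lower, where 28.3% of all genes were called higher and 34.4% lower. The split between HIST1 and HIST2 was thus present on each of these scales, although single HIST1 genes were called higher on the other 2. All scales use the same libraries, so they are not separate support. Grouping by cluster was not planned, as the planned grouping was by histone type.

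**Figure D5:**
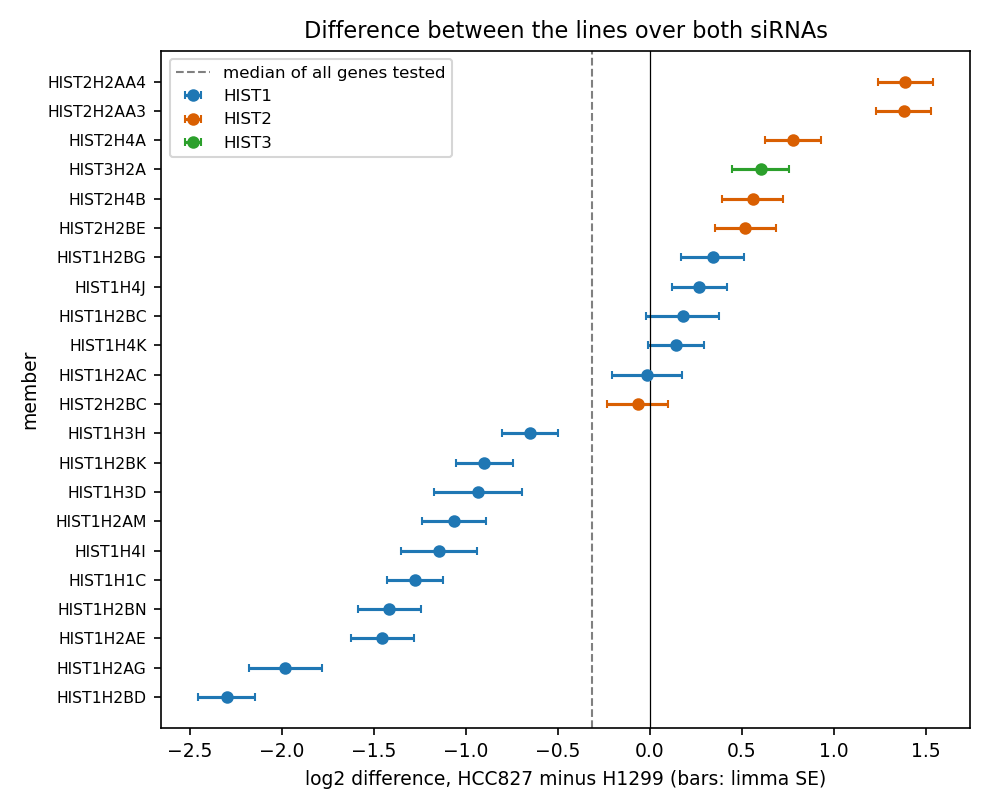
Log2 difference in TPM + 1, HCC827 minus H1299 over both siRNAs, for the 22 members tested, with limma standard errors as bars and colours for the cluster. The dashed line is the median of all genes tested, -0.31; of the HIST2 genes only HIST2H2BC lies below 0, and the 10 lowest values are all of HIST1 genes.

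Histone mRNA is made and handled by a dedicated set of factors, and these did not reach 2-fold in either line. Of the 21 genes listed, 20 passed in H1299, 13 of them below the all-gene median, with a median of -0.26; in HCC827, 18 passed and 9 were below the all-gene median, with a median of -0.01. SLBP was at 85.4, 60.1, 46.3 and 41.9 TPM, with log2 ratios of -0.50 and -0.14, so each siCDH3 library was below its control. NPAT, the coactivator of histone gene transcription in S phase, was at 8.35, 5.79, 7.70 and 6.70. LSM1, which takes part in histone mRNA decay, had ratios of -0.47 and 0.23, and YY1, a transcription factor, of -0.41 and -0.29. limma called none of the list for siCDH3 (for SLBP, adjusted p = 0.95).

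Genes for DNA replication, which mark cells in S phase, had values slightly below the control. Of the 28 listed, 27 passed in H1299, 16 of them below the all-gene median, and 26 passed in HCC827, 23 of them below it. The median log2 ratio was -0.18 in both lines, against -0.11 over all genes in H1299 and 0.03 in HCC827. That of the histone members was 0.19 and 0.20. No gene of the list reached 2-fold. Among the larger ratios were those of POLA1, a DNA polymerase subunit (-0.60 in H1299 and -0.07 in HCC827), RRM2, a ribonucleotide reductase subunit (-0.58 and 0.12), and GINS1, of the replicative helicase (-0.57 and 0.07). Their part in the histone values was not tested, and limma called none of them for siCDH3.

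Replication-independent histone genes, most of which give polyadenylated mRNA outside S phase too, had a higher summed TPM than the members in all 4 libraries. The 14 listed summed to 1724, 1597, 1634 and 1624 TPM, against 605, 674, 465 and 536 for the 75 members. Of 12 that passed in H1299, 5 lay below the all-gene median (median log2 ratio -0.08, against -0.11 over all genes), and of 10 in HCC827, 8 did (median -0.05, against 0.03), with none at 2-fold. H2AFZ, for the variant H2A.Z, was at 171, 102, 99.2 and 95.4 TPM, and its log2 ratio of -0.73 in H1299 was not matched in HCC827 (-0.06). H2AFY, for macroH2A, had ratios of -0.11 and -0.46 and H1F0, for linker histone H1.0, of -0.29 and -0.08. H2AFB1 was at 14.2, 18.5, 0.164 and 0.509 TPM, with a log2 ratio of 0.36 in H1299.

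Histone chaperones and importers, which carry histones to the nucleus and onto DNA, included the 1 gene of these lists past 2-fold. HJURP, the chaperone of the centromeric histone CENP-A, was at 15.9, 52.8, 15.4 and 12.9 TPM; the log2 ratio was 1.67 in H1299 and that in HCC827 was -0.24. Of the 24 genes listed all passed in H1299, 16 of them below the all-gene median (median -0.20), and 22 passed in HCC827, 12 of them below it (median -0.02). IPO4, which imports H3 and H4, had ratios of 0.84 and 0.52, DAXX, an H3.3 chaperone, of 0.47 and 0.69, and its partner ATRX of -0.70 and 0.04. limma called none of the list for siCDH3.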

How the data were processed

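RNA sequencing libraries of H1299 and HCC827 cells, 1 per group, were deposited as a table of TPM values per gene. The authors deposited TPM only, so read depth is unknown and no counting interval or floor can be given. The submitters' processing notes name the build hg19; nothing on the aligner, counting tool, annotation, strand setting or RNA selection is given in the sources used here. No other column of values was present. Within each line, siCDH3 was set over siCTR as a log2 ratio of TPM + 1, for genes reaching 5 TPM in either library, and a 2-fold size rule was applied with no test. The pseudocount of 1 understates changes of low genes. Across lines the 12941 genes reaching 5 TPM in any library were fitted on the log2(TPM + 1) scale with limma 3.58.1 under R 4.3.3, with line and siRNA as terms; Benjamini-Hochberg adjusted p under 0.05 was called, two-sided. The script was tested on simulated data.

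Members at 5 TPM or more were named in full; of other lists, the 4 with the largest log2 ratios, SLBP and NPAT. A gene that this rule takes is not reported here. Members under 5 TPM that are named, the head-to-head partners and the epithelial markers at low TPM were chosen after their values were seen. Members and lists were chosen with earlier results of these data known. Stem-loops, 50-base windows and start distances came from GENCODE release 29, and promoter windows from RefSeq (GRCh38.p14); neither is the build named for the files. The alternatives changed the pseudocount (0.1 or 5), the filter (TPM 1, TPM 20 or none) or the scale, by setting the all-gene median to 0 or leaving out mitochondrially encoded genes. Others were size rules of 1.5-fold and 4-fold, and limma with a trend or without the block. Figures were drawn with matplotlib 3.10.9.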

Additional observations from a re-analysis of the deposited data

Results flagged for a closer look

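Members had opposite signs of the siCDH3 difference in the 2 lines in 3 cases among those above 5 TPM in both; with 1 library per group the difference between the lines was not tested. For HIST1H2AC the log2 ratio in HCC827 minus that in H1299 was 0.517, for HIST1H2BC it was 0.562, and for HIST2H2BC it was -0.314. HIST1H2BC lay close to 0 in H1299 (-0.02), where its sign turned with the all-gene median set to 0 and without mitochondrially encoded genes, and HIST2H2BC close to 0 in HCC827 (-0.05).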

How the results depend on the processing

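Over 127 alternative values of the main results, 95 kept their direction and lay within 1.5 times a count or within 0.1 log2 of a median or sum (no replicate spread exists to set this tolerance), 29 moved and 3 changed sign. For single members, whose own ratio a filter cannot change, 158 of 264 values stayed within it, 94 moved and 12 changed sign. The sign changes came with the all-gene median set to 0 and without mitochondrially encoded genes, respectively: in H1299 HIST1H2BC (0.0880 and 0.0281) and HIST2H4B (0.0906 and 0.0281), in HCC827 HIST3H2A (-0.0103 and -0.0196) and HIST1H4K (-0.0129 and -0.0209), and between the siCTR libraries HIST1H2AC (0.118 and 0.155) and HIST1H2BC (0.29 and 0.318). The H4 sum in HCC827 went to -0.0217 without mitochondrially encoded genes. Members at least 2-fold different with siCDH3 in H1299 became 1 higher (HIST2H2AC) and 1 lower (HIST1H2AH) with a filter at TPM 1 or none, 1 higher (HIST2H2AC) without mitochondrially encoded genes and 2 higher (HIST1H2BG and HIST1H3D) at 1.5-fold; the H1299 median became 0 with no filter and 0.301 with the all-gene median set to 0, and the HCC827 median 0.0722 with no filter, which adds the members near 0. Between the siCTR libraries the 2 higher and 6 lower members became 6 and 10 with a filter at TPM 1 or none, 5 higher at 1.5-fold, 0 higher and 2 lower at 4-fold, 3 lower with a pseudocount of 5 and 2 lower with a filter at TPM 20. With the all-gene median set to 0 they became 5 higher and 4 lower and the median reversed to 0.29. Without mitochondrially encoded genes 24 members passed, 6 were higher and 4 lower, and the median was 0.237. Both rescalings shift every gene of a library alike. With no filter the median was 0. The shares of all genes past the size rule were not computed under these alternatives. limma's calls between the lines became 10 higher and 16 lower at TPM 1, 3 lower at TPM 20 and 10 higher without mitochondrially encoded genes. Without the top member of each type the log2 ratio of the sums became 0.341 (H1) and 0.276 (H2A) in H1299 and 0.974 (H1) and 0.358 (H2B) in HCC827. limma called 0 members for siCDH3 under all alternatives run. No paired analysis by replicate number was possible because each group has 1 library; fits with no replicate block, that is without the other term, called 0 members for siCDH3 and 6 higher and 10 lower between the lines, as before. No library could be left out, since each group has 1.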
